A study of Mus musculus with 40 samples.

Results

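Described here are 10 mouse genes of the Notch pathway across embryonic lung tips and lung organoids: the receptors Notch1, Notch2 and Notch3, the ligands Jag1, Jag2 and Dll1, the glycosyltransferase gene Lfng, and the target genes Hes1, Hey1 and Nrarp. They were taken by symbol, and all 10 were found in each of the 5 deposited tables, which list 55260 gene symbols in 4 tables and 55286 in the table of the libraries named LO. The study sequenced RNA of lung organoids that branch in culture and start from tip epithelium. Values are TPM, transcript shares of a fixed total, which are scaled for gene length and so allow levels of different genes to be set side by side.

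Lung tips, labelled as tip epithelium, came from 4 stages a day apart, E10.5 to E13.5, with 1 library per stage (n = 4). Organoids started from E9.5 to E14 lungs were harvested after 11 to 32 days, with 1 library for each of 10 combinations. LO libraries cover days 8, 11 and 18 and a day 11 library named LO_day11_DCI. A further table holds 2C, 2C+F10, 2C+MTG, 2C+VC and an ALL library without a replicate number. Numbered replicates, 2 per group, exist for ALL and for ALL-FGF10, ALL-MTG and ALL-VC. The last table holds 8 cut pieces and 1 intact organoid. LO, DCI, 2C, F10, MTG, VC and ALL are used as names because the labels do not define them, and it is assumed here that ALL is a complete medium from which a minus takes a factor away and that a plus adds one. The labels give no strain or genotype for any group, and do not say whether libraries of a group came from separate animals or cultures. All p-values therefore measure only the spread between these libraries, which may be partly technical, and for numbered replicates wholly so. In the comparison of organoids with tips the spread also holds differences of stage and culture day. Between 13036 and 14418 genes reached 1 TPM in a library, and sequencing depth is unknown because TPM keeps none.

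Notch receptors are cut at the cell surface when a ligand of the Jagged or Delta family on a neighbouring cell binds them, and the released part enters the nucleus, joins the DNA-binding protein RBPJ and switches on targets such as Hes1, Hey1 and Nrarp. In the developing airway the pathway is known for setting the balance of secretory, ciliated and neuroendocrine cells, and NOTCH2 for its part in secretory fate. LFNG adds sugars to the receptors and alters which ligands act on them. NRARP is a target that also restrains the pathway, and Hes1 answers to other signals besides Notch.

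Promoter windows are shown for Notch3, Nrarp and Lfng, the receptor, target and modifier that differed most between tips and organoids or over culture time. Each window runs from 250 bases before to 50 bases after a RefSeq transcription start (GRCm38.p6) and reads 5′ to 3′ on the gene's strand. Capitals mark GTGGGAA and its core TGGGAA, which are RBPJ-type motifs, and CACGTG, an E-box of the kind that HES and HEY proteins can bind, each searched on both strands.

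Notch3, chr17:32166841-32167140 (-): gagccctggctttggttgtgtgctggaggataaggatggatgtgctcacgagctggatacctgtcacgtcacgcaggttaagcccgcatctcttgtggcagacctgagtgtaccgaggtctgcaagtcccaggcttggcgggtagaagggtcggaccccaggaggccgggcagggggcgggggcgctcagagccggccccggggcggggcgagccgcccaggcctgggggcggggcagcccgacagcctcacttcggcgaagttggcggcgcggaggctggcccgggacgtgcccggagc

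Nrarp, chr2:25180508-25180807 (+): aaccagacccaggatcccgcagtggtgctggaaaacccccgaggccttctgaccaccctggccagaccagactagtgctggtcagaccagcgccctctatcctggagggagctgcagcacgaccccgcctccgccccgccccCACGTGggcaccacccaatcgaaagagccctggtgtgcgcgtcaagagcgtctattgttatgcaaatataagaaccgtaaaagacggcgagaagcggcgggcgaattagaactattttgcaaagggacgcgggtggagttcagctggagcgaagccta

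Lfng, chr5:140607091-140607390 (+): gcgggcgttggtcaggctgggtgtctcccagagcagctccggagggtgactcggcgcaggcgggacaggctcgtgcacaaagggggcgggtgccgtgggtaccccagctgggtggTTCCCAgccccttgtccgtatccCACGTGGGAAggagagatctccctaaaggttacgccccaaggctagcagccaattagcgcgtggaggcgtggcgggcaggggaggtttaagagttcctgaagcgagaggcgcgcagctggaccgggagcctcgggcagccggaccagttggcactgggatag

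RefSeq entries were found for 8 of the 10 members, in 9 windows. The Lfng window holds GTGGGAA with its first base at -109 from the start site, where it contains a TGGGAA and overlaps a CACGTG at -112, and a further TGGGAA at -135 on the opposite strand, where the printed letters read TTCCCA. In the Nrarp window there is 1 CACGTG, at -108. No motif of this search was found in the Notch3 window. Of all 32851 promoter windows in the RefSeq table, 6.38% hold GTGGGAA, 25.56% hold TGGGAA and 7.15% hold CACGTG. These matches are letters in a window, and binding was not measured.

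Notch receptor transcripts were lower in organoids than in tips, and among the receptors the largest difference was that of Notch3. Notch3, a receptor best known from vascular smooth muscle and pericytes, lies at chr17:32120820-32166852 on GRCm38. In the tips from E10.5 to E13.5 it stood at 45.8, 57.2, 44.2 and 42.3 TPM. Organoids of 11 to 13 days ranged from 4.24 to 9 TPM with a median of 5.52, and those of 18 to 32 days from 1.11 to 4.09 with a median of 1.85. The 3 ranges do not overlap. Every organoid lay below every tip for 29.3% of all tested genes. Means were 47.4 ± 6.69 TPM in tips (SD, n = 4), 6.34 ± 2.02 after 11 to 13 days (n = 5) and 2.32 ± 1.15 after 18 to 32 days (n = 5). On the scale of log2(TPM + 1), which understates changes of low genes, the 10 organoids were lower than the tips by a fitted difference of -3.34 ± 0.35 (SE), with a limma adjusted p of 7.9e-07 after Benjamini-Hochberg adjustment over 16779 genes.

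Notch1, a receptor known for cell fate choice, lies at chr2:26457903-26516663. Tips held 16.4, 37.7, 30.3 and 43.1 TPM in order of stage. The E10.5 tip was the lowest, and 1 organoid, started at E10.5 and grown for 11 days, exceeded it with 18.4 TPM. Organoids of 11 to 13 days otherwise held 11.7 to 15.2 TPM, and those of 18 to 32 days 3.64 to 8.65. Organoids were lower than tips by -1.61 ± 0.35 (limma adjusted p = 0.00086).

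Notch2, at chr3:98013527-98150361, varied least of the receptors. Tips held 17.1 to 20.3 TPM, organoids of 11 to 13 days 13.52 to 19.8 and organoids of 18 to 32 days 9.34 to 15. Tips and organoids overlap. The fitted difference was -0.37 ± 0.15 (limma adjusted p = 0.043). That call ended when libraries were rescaled by median ratios (-0.08, adjusted p = 0.59), with organoids of 11 to 13 days only (-0.19, adjusted p = 0.21) and with no filter on low values (adjusted p = 0.059). It also ended in 8 of 14 cases when 1 library was left out, namely any of the 4 tips, the 19-day or 30-day organoid from E13.5 or either organoid from E14, with the highest adjusted p, 0.11, without the E13.5 tip.

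**Figure D1:**
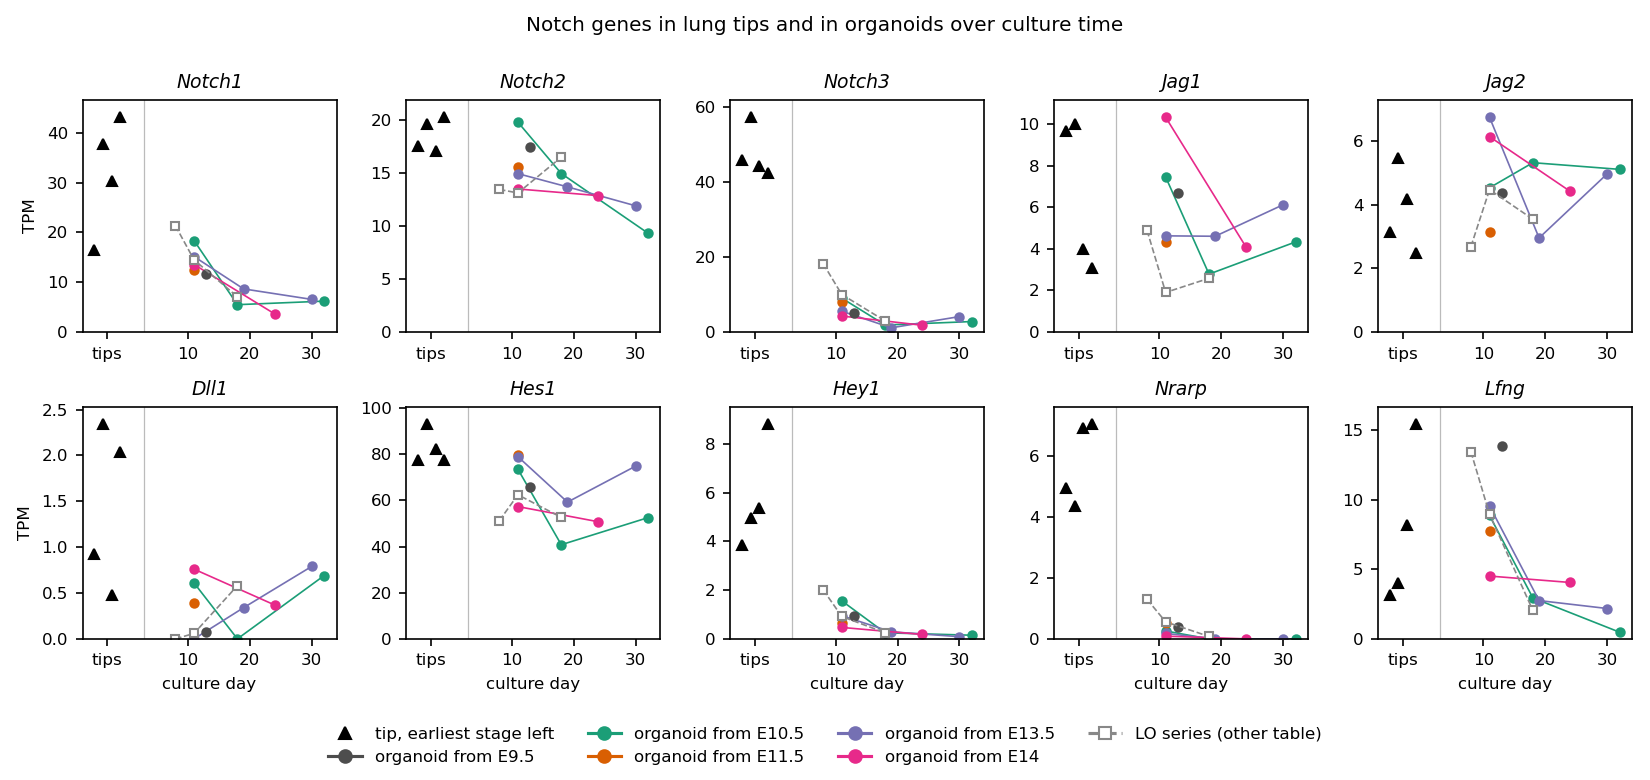
TPM (linear axes starting at 0) of the 10 genes in tips (triangles, E10.5 to E13.5 from left to right) and in organoids by culture day, where circles of 1 colour joined by a line share a start stage. Squares are the LO days 8, 11 and 18 from another table. Every organoid lies below every tip for Notch3, Hey1 and Nrarp, while Jag1, Jag2 and Hes1 overlap.

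Because the receptors moved by unequal amounts, their proportions differed between tips and organoids. Notch3 made up 40 to 57.4% of the summed TPM of Notch1, Notch2 and Notch3 in tips, 13.54 to 22% in organoids of 11 to 13 days and 4.73 to 18.1% in organoids of 18 to 32 days. Notch2 made up 17.2 to 22%, 42 to 51.1% and 51 to 70.4% in the same order. The sum itself was 79.8 to 114.5 TPM in tips, 31.3 to 47.2 and 18.3 to 23.5. Notch3 was the largest share in 3 of 4 tips and Notch2 the smallest in 3, while Notch2 was the largest in 8 of 10 organoids. Notch4, the remaining receptor and one best known from endothelium, stood at 1.85 to 2.62 TPM in tips and 0.03 to 1.6 in organoids, and fell by 1.15 on the log2 scale (limma adjusted p = 0.00041). Of the organoids only the 11-day one from E11.5 reached 1 TPM. Notch4 thus passed the filter on low values only with the tips, and had to be lower in organoids to enter the comparison.

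**Figure D2:**
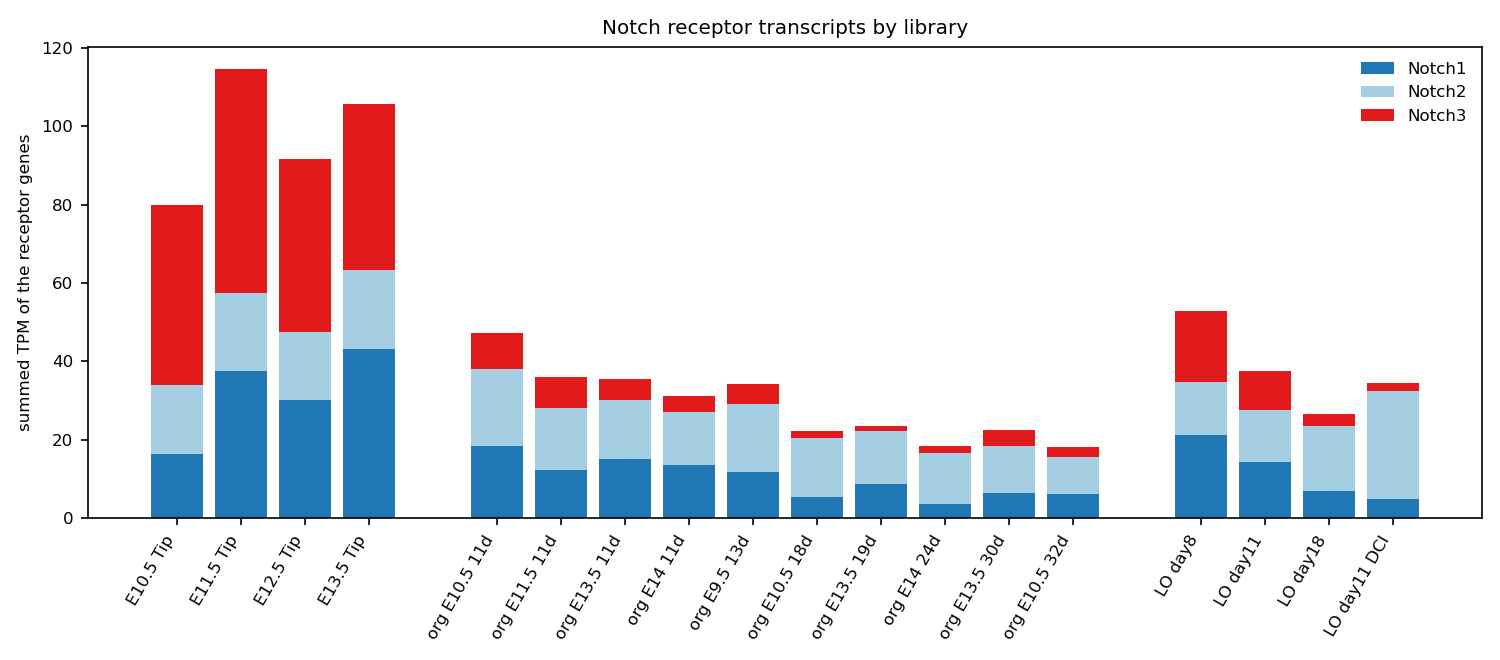
Stacked bars of Notch1, Notch2 and Notch3 TPM for each tip, organoid (by start stage and culture day) and LO library. Tips reach sums of 79.8 to 114.5 TPM with the red Notch3 part at 40 to 57.4%, and organoids of 18 to 32 days reach 18.3 to 23.5 TPM.

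Jag1 and Jag2, the more abundant ligands, did not pass the test between organoids and tips. Jag1 (chr2:137081456-137116644), a Jagged ligand, stood at 9.64, 10, 3.97 and 3.08 TPM in the tips and at 2.78 to 10.3 TPM in organoids, median 4.61. Jag2 (chr12:112907819-112929776) stood at 2.5 to 5.48 TPM in tips and 2.96 to 6.76 in organoids, median 4.76. Both sets overlap over most of their range. Fitted differences were -0.16 ± 0.3 for Jag1 (limma adjusted p = 0.65) and 0.27 ± 0.2 for Jag2 (adjusted p = 0.26). Jag1 took the opposite sign after median-ratio rescaling (0.1) and in organoids of 11 to 13 days only (0.08), and Jag2 passed the threshold after rescaling (0.51, adjusted p = 0.034).

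Dll1 (chr17:15367354-15376872), a Delta ligand known from neuroendocrine cells of the airway, was low throughout, at 0.93, 2.34, 0.48 and 2.04 TPM in tips and 0 to 0.79 in organoids. Dll1 reached 1 TPM in 2 tips and 0 organoids, so it passed the filter on low values only through the tips. Its fitted difference was -0.76 ± 0.24, or -1.78 with a pseudocount of 0.1 TPM, and with no filter on low values the limma adjusted p was 0.014. Of the ligands outside the list, Dll4, a Delta ligand of endothelium among other tissues, stood at 2.05 to 3.67 TPM in tips and 1.69 to 3.65 in organoids and did not pass the test (0.08, adjusted p = 0.72). Dll3 was listed at 0 to 0.27 TPM. Summed Jag1, Jag2 and Dll1 levels were 7.62 to 17.8 TPM in tips and 7.86 to 17.2 in organoids.

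Among the targets, Nrarp and Hey1 fell in organoids while Hes1 stayed the most abundant member. Nrarp (chr2:25180758-25183339) stood at 4.95, 4.38, 6.93 and 7.06 TPM in tips. In organoids of 11 to 13 days it stood at 0.09 to 0.53, and in all 5 organoids of 18 to 32 days it was listed at 0. No organoid reached a tip. Nrarp was at 1 TPM in 4 tips and 0 organoids, so it too passed the filter only through the tips. Its fitted difference was -2.57 ± 0.18, or -4.94 with a pseudocount of 0.1 TPM, and with no filter the limma adjusted p was 1.8e-08.

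Hey1 (chr3:8663359-8667256), a repressor of the Hairy family, stood at 3.87, 4.98, 5.36 and 8.81 TPM in tips, at 0.47 to 1.56 in organoids of 11 to 13 days and at 0.09 to 0.29 in later ones. These 3 ranges are also separate. With 4 tips and 1 organoid at 1 TPM, Hey1 also passed the filter only with the tips. The fitted difference was -2.13 ± 0.25, or -3.43 with a pseudocount of 0.1 TPM, and with no filter the limma adjusted p was 6.8e-06. Hes1 (chr16:30064384-30067796), another Hairy-family repressor, was the highest of the 10 genes in all 40 libraries of the series. It stood at 77.7 to 93 TPM in tips, 57.3 to 79.8 in organoids of 11 to 13 days and 40.8 to 74.8 in later ones, with overlap at each step. Its difference of -0.4 ± 0.16 (limma adjusted p = 0.033) lost its call after rescaling (-0.1, adjusted p = 0.53) and in organoids of 11 to 13 days only (-0.22, adjusted p = 0.10) and with no filter on low values (adjusted p = 0.052). It also lost the call without the E11.5 tip (adjusted p = 0.105), the E12.5 tip (0.066) or the 24-day organoid (0.051).

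Lfng (chr5:140607320-140615545) stood at 3.18, 4.04, 8.21 and 15.4 TPM in tips from E10.5 to E13.5. Organoids of 11 to 13 days held 4.51 to 13.9 TPM, within the range of the tips, and organoids of 18 to 32 days 0.48 to 4.05. The comparison of all organoids with tips gave -0.45 ± 0.52 (limma adjusted p = 0.47), and 0.33 with organoids of 11 to 13 days only.

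All 10 members passed the filter of 1 TPM in 2 libraries, and 7 were called lower in organoids and none higher, beside 40.2% of all tested genes called lower. Of these 7, Nrarp, Hey1 and Dll1 had to be lower in organoids to enter the comparison. Of the 7 members that reach the filter in organoids alone, 4 were called lower, beside 37.3% of all genes that do so. Their median difference was -0.4, and that of those genes -0.12. Leaving out the E11.5 tip reduced the members called from 7 to 4, with a range of 4 to 7 over all libraries left out in turn. Median-ratio rescaling moved the all-gene median from -0.2 to 0.06 and the split of called genes from 3640 higher and 6752 lower to 5070 higher and 5248 lower, and Notch3, Nrarp, Hey1, Notch1 and Dll1 kept their direction and call.

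**Figure D3:**
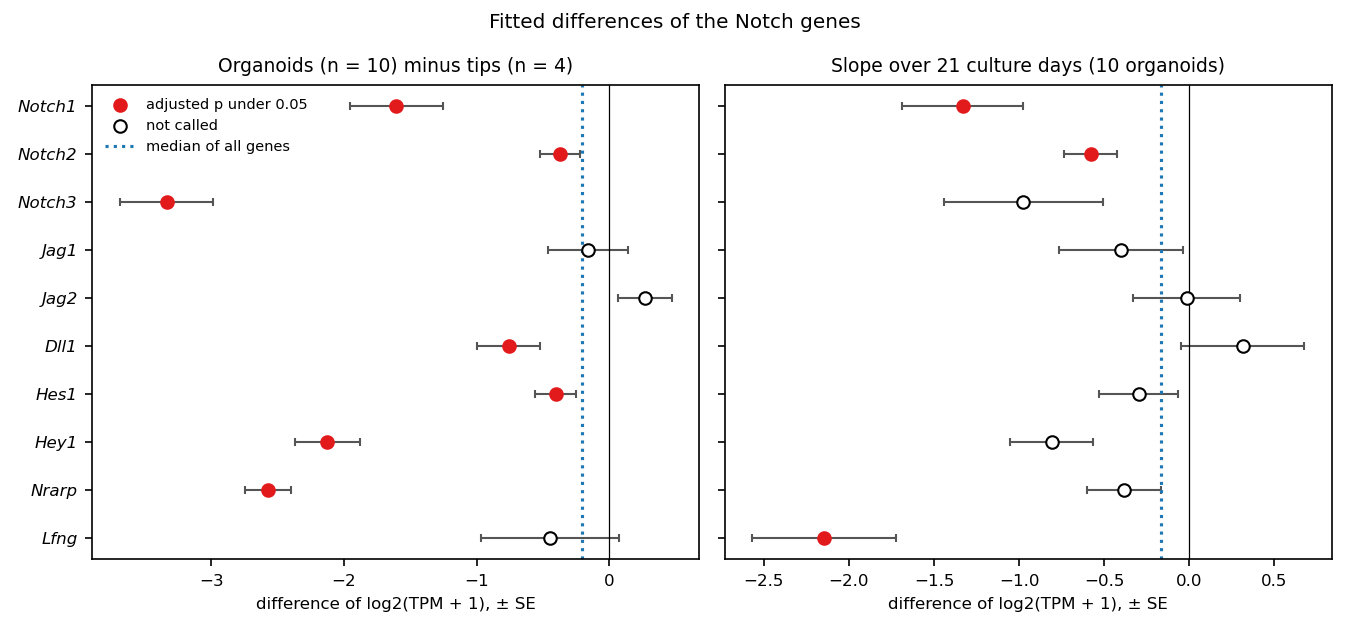
Fitted differences of log2(TPM + 1) with SE bars for each gene, organoids minus tips on the left and the slope over 21 culture days on the right. Filled red points passed an adjusted p of 0.05, the dotted line is the median of all tested genes, and Notch3 (-3.34) lies farthest left in the left panel, which does not hold with a pseudocount of 0.1 TPM (Nrarp -4.94, Notch3 -3.67), and Lfng (-2.15) in the right panel.

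Tips and organoids also differed in transcripts of other cells. All 8 lung epithelium markers, among them Epcam and Nkx2-1, were at 1 TPM or more in every tip and organoid, with sums of 1967 to 2383 TPM in tips and 1991 to 2310 in organoids. Haematopoietic markers summed to 1553 to 7359 TPM in tips and 4.62 to 125.4 in organoids, with 5 of 8 at 1 TPM in each tip and 2 to 3 in organoids. Pericyte and smooth muscle markers summed to 28.6 to 50.3 TPM in tips and 5.82 to 13.4 in organoids, with 5 to 7 of 8 against 1 to 5 at 1 TPM. The receptor gene Pdgfrb, a pericyte marker, stood at 3.65 to 18 TPM in tips and 0.09 to 3.05 in organoids. Mesenchymal markers summed to 96.7 to 250 TPM in tips, and to 2.81 to 327.3 in organoids, with 8 to 9 of 10 against 1 to 8 at 1 TPM. Endothelial markers were at 1 TPM for 4 to 9 of 9 in tips and 1 of 9 in organoids. That gene was Esam, a junction protein gene, at 3.94 to 8.66 TPM in tips and 11.3 to 38.7 in organoids, and called higher there. The endothelial sums overlap, at 12.9 to 40.8 TPM in tips and 11.8 to 39 in organoids, while 7 of the 8 tested markers were called lower and Cdh5 was listed at 0 to 0.06 TPM in organoids. These 7 reached 1 TPM in tips alone, so they passed the filter only through the tips and had to be lower in organoids to be tested. Neuroendocrine markers summed to 113.6 to 137.4 TPM in tips, mostly Uchl1, and 2.04 to 13.6 in organoids. Distal tip markers summed to 1379 to 1580 TPM in tips and 49960 to 125900 TPM in organoids, where most of the sum was Sftpc, a surfactant protein gene. Of these 7 markers Sftpc and Bmp4 were called higher in organoids, and Sox9, Etv5, Mycn and Lin28b were called lower, with a median difference of -1.06. The part of these transcripts and cells in the differences was not tested. In such bulk libraries fewer cells of a type and less RNA per cell cannot be told apart. Without the 3 organoids highest in mesenchymal markers, Notch3 differed by -3.57, Notch1 by -1.72 and Nrarp by -2.63, and 7 members were called. Of all 16339 genes tested in that fit, 10191 were called, 6690 of them lower. Nrarp, Hey1 and Dll1 passed the filter only with the tips there too.

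Each 11-day organoid can be set beside the tip of its own start stage, 1 library against 1, without a test. Notch3 was lower in the organoid at E10.5 (45.8 against 9 TPM), E11.5 (57.2 against 7.9) and E13.5 (42.3 against 5.52). Nrarp and Hey1 were also lower at all 3 stages. Notch1 was about level at E10.5 (16.4 in the tip, 18.4 in the organoid) and lower in the organoid at E11.5 (37.7 against 12.4) and E13.5 (43.1 against 15.2). Lfng was higher in the organoid at E10.5 (3.18 against 8.86) and E11.5 (4.04 against 7.74) and lower at E13.5 (15.4 against 9.54).

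Within the tips, no member passed the limma test for embryonic day, beside 0.733% of all genes. An unadjusted limma p under 0.05 was found for 3 members and for 1664 of all 16779 genes tested. Over the 3 days Lfng differed by 2.04 (adjusted p = 0.24) and Hey1 by 0.94 (adjusted p = 0.42), both highest at E13.5. Jag1 differed by -1.59 (adjusted p = 0.31), with 9.64 and 10 TPM at E10.5 and E11.5 against 3.97 and 3.08 later. With 1 library per stage the spread around the fitted line stands in for replicates.

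Time in culture was the next comparison, and Lfng fell the most. Organoids were fitted with a slope on culture day, given here over the range of 21 days, with the start stage as a further term. Lfng fell by 2.15 ± 0.42 on the log2 scale (limma adjusted p = 0.0097), Notch1 by 1.33 ± 0.36 (adjusted p = 0.036) and Notch2 by 0.58 ± 0.16 (adjusted p = 0.037). Organoids of 18 to 32 days lay wholly below those of 11 to 13 days for Lfng, Notch1, Notch3, Hey1 and Nrarp, and the classes overlap for the other 5 members. Hey1 (0.09 to 0.29 against 0.47 to 1.56 TPM) and Nrarp (0 against 0.09 to 0.53) lay near the floor. Both passed the filter only with the tips. The later class lay wholly below the earlier one for 7.59% of all tested genes. The 3 called members compare with 6.67% of all genes called lower, and the median slope was -0.49 for the members and -0.17 for all genes.

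The other members did not pass. Hey1 had a slope of -0.81 ± 0.24 (limma adjusted p = 0.058) and Notch3 of -0.97 ± 0.47 (adjusted p = 0.21). Taking culture day as the classes 18 to 32 against 11 to 13 days, an alternative chosen after seeing the data, Notch3 differed by -1.13 (adjusted p = 0.015) and Hey1 by -0.63 (adjusted p = 0.04) and were called, while Notch2 (-0.33, adjusted p = 0.15) was not. Slopes of Nrarp (-0.38), Jag1 (-0.4), Hes1 (-0.3), Jag2 (-0.01) and Dll1 (0.32) had adjusted p-values of 0.3 to 0.99.

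These calls depended on single libraries. Without the 32-day organoid none of the members was called, the adjusted p of Lfng being 0.17, that of Notch1 0.082 and that of Notch2 0.45. Without the 11-day organoids started at E10.5, E11.5 or E13.5, 1 member was called in each case. The 3 organoids highest in mesenchymal markers are those of E10.5 after 11 days (327.3 TPM summed), E10.5 after 32 days (190.6 TPM) and E11.5 after 11 days (74.4 TPM). Without them 0 members and 166 of all genes were called, and Lfng had a slope of -1.53 (limma adjusted p = 0.31) and Notch1 of -1.59 (adjusted p = 0.20). Median-ratio rescaling moved the all-gene median to 0, the split of called genes from 498 higher and 1119 lower to 705 higher and 474 lower, and left Lfng called (-2.04, adjusted p = 0.012) but not Notch1 (-1.15, adjusted p = 0.059) or Notch2 (-0.38, adjusted p = 0.12). Notch1 also lost its call without the 11-day organoid from E14 (adjusted p = 0.078) and with no filter on low values (adjusted p = 0.064), and Notch2 without the organoid from E9.5 (adjusted p = 0.056). Hey1 was called without the 18-day organoid (adjusted p = 0.0499) and with a pseudocount of 0.1 TPM (-2.27, adjusted p = 0.014).

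Organoids of 1 start stage form short series, in which every later library lay below the 11-day one for Notch1 and Lfng. For E10.5 (11, 18 and 32 days) Notch1 stood at 18.4, 5.48 and 6.19 TPM and Lfng at 8.86, 2.94 and 0.48. For E13.5 (11, 19 and 30 days) Notch1 stood at 15.2, 8.65 and 6.54 TPM and Lfng at 9.54, 2.75 and 2.18. For E14 (11 and 24 days) Notch1 stood at 13.55 and 3.64 TPM and Lfng at 4.51 and 4.05, a small step. All 5 later libraries were below the 11-day library of their series for Notch1, Notch2, Notch3, Hes1, Hey1, Nrarp and Lfng, as were 4 of 5 for Jag1, 3 for Jag2 and 2 for Dll1. The same held in all 5 for 21.8% of all tested genes. Hey1 and Nrarp lay near the floor in these series, at or below 1.56 TPM. The start stage itself gave no called member beside 0.0536% of all genes called by limma, and no member had an unadjusted p under 0.05.

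Across the 10 organoids some members varied together, which is described here without a test, since the libraries share culture age. Pearson's r of log2(TPM + 1) was 0.88 for Notch2 and Lfng, 0.86 for Notch1 and Hey1, 0.83 for Hey1 and Lfng and 0.79 for Notch3 and Nrarp. Jag2 had r between -0.28 and 0.21 with every other member. Among 9449 genes with a median of at least 5 TPM, the genes most like Notch1 were Fgfrl1 (r = 0.96), Lrrc58 (0.96) and Slc44a1 (0.955), and those most like Notch3 were Isca2 (0.96), Rsbn1 (0.95) and Nedd1 (0.95). Lfng was most like Nudt3 (0.98), Ago1 (0.97) and Hnrnpu (0.965), Hey1 most like Arvcf (0.97) and Hes1 most like Zfp770 (0.95). For Jag2 the highest r was 0.85, with Zdhhc7.

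The LO libraries give a separate course over days 8, 11 and 18, with 1 library per day and no test. Notch3 stood at 18.2, 9.97 and 2.94 TPM, Notch1 at 21.3, 14.5 and 7.06, and Lfng at 13.4, 8.95 and 2.04. Each of the 3 was lower at each later day, as were 39.8% of genes with 5 TPM in any LO library. Notch2 stood at 13.48, 13.1 and 16.5 TPM and Hes1 at 51.2, 62.4 and 52.7, with no such order. Hey1 stood at 2.01, 0.92 and 0.25 TPM and Nrarp at 1.3, 0.56 and 0.08. Notch2 accounted for 25.4, 35 and 62.3% of receptor TPM, and Notch3 for 34.3, 26.5 and 11.1%.

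A difference was counted between single libraries where log2(TPM + 1) differed by at least 1 with at least 5 TPM in the higher library. Shares and medians of genes are taken over those with at least 5 TPM in the higher library, here and below. Jag1, Jag2, Dll1, Hey1 and Nrarp were under 5 TPM on days 8, 11 and 18, so they could not pass between these days. From day 8 to 11 no member passed, beside 5.25% of 11274 such genes. From day 8 to 18 Notch3 (-2.28), Lfng (-2.25) and Notch1 (-1.47) passed, beside 19.9% of genes and an all-gene median of -0.26. From day 11 to 18 Lfng (-1.71) and Notch3 (-1.48) passed, beside 14.1%. Neuroendocrine markers, mostly Uchl1, summed to 44.6, 17.9 and 10 TPM on the 3 days, mesothelial markers to 14.3, 6.3 and 2.66 and distal tip markers to 13800, 38450 and 110400, each in the order of the days. A single gene can carry such a sum, as Sftpc did for the distal tip markers in the organoids set against tips. Mesenchymal markers summed to 14.7, 70.4 and 3.58 TPM. Haematopoietic markers summed to 2.5, 2.91 and 48.2 TPM, with 1, 1 and 2 of 8 at 1 TPM. The part of these transcripts in the differences was not tested.

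LO_day11_DCI differed from LO_day11 in 4 members, in opposite directions. Notch2 was higher (27.7 against 13.1 TPM, log2 difference 1.02), as was Jag1 (6.92 against 1.9, 1.45). Notch3 was lower (1.92 against 9.97, -1.91), as was Notch1 (4.83 against 14.5, -1.41). Of genes with at least 5 TPM in the higher library, 24.2% were past the same threshold, with a median of -0.08. Notch2 reached 80.4% of receptor TPM in this library and Notch3 5.58%. Jag2 (8.71 against 4.48 TPM) and Lfng (5.06 against 8.95) stayed within a log2 difference of 1, and Hes1 was close (56 against 62.4). Hey1 and Nrarp were listed at 0.

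Of the other target genes in that comparison, Bcl6, a transcriptional repressor, was higher (11.6 against 2.17 TPM), and Id1 (63.2 against 273), an inhibitor of helix-loop-helix factors, and the distal tip factor gene Sox9 (19.2 against 64.8) were lower. Pofut1, whose enzyme adds O-fucose to Notch receptors, was lower at 7.8 against 19.2 TPM. Club cell markers summed to 430.4 TPM with DCI and 3.12 TPM in LO_day11, with 3 and 1 of 7 at 1 TPM. Mesothelial markers summed to 277.3 against 6.3 TPM, nearly all of it Msln, haematopoietic markers to 25.9 against 2.91, basal cell markers to 9.34 against 0.26 and distal tip markers to 71050 against 38450. Of the 8 haematopoietic markers, 3 were at 1 TPM with DCI and 1 in LO_day11. A single gene can carry the distal tip sum, and Sox9, which is on that list, went the other way. Mesenchymal sums were 71 and 70.4 TPM. The part of these transcripts was not tested. With 1 library on each side, these values have no replicate check.

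**Figure D4:**
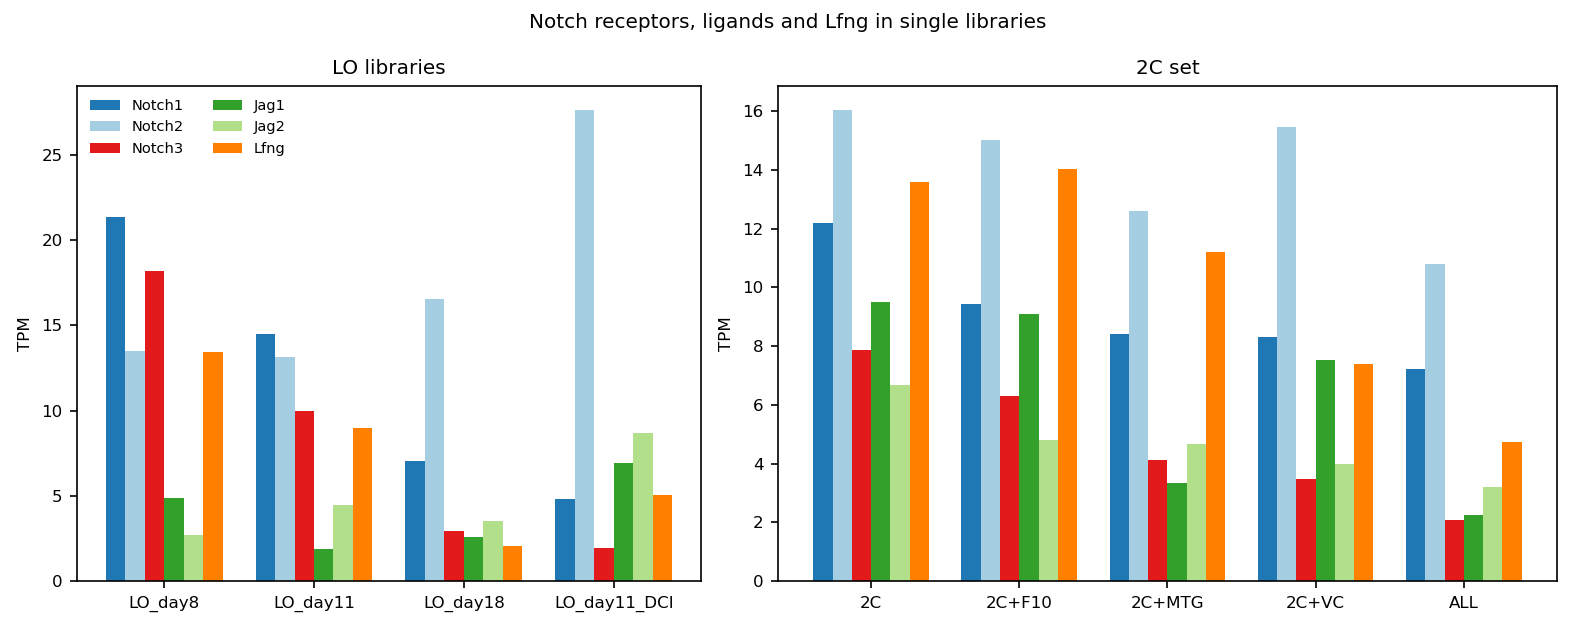
TPM of Notch1, Notch2, Notch3, Jag1, Jag2 and Lfng in the 4 LO libraries (left) and the 5 libraries of the 2C set (right), 1 library per cluster of bars. Notch2 reaches 27.7 TPM in LO_day11_DCI, where Notch3 stands at 1.92, and 2C has the highest Notch1, Notch3 and Jag1 bars of its set.

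In the 2C set the library named 2C had the highest Notch1 (12.2 TPM), Notch2 (16.1), Notch3 (7.86), Jag1 (9.49) and Jag2 (6.67) of the 5 libraries. Notch3 stood at 6.3 TPM in 2C+F10, 4.13 in 2C+MTG, 3.48 in 2C+VC and 2.09 in the unnumbered ALL library. Jag1 stood at 9.09, 3.35, 7.52 and 2.26 TPM in the same order. Lfng stood at 13.6 TPM in 2C and at 14.1, 11.2, 7.38 and 4.72 in the others. Hes1 stood between 42.6 and 63.4 TPM, and Hey1, Nrarp and Dll1 at or below 1.38.

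Against 2C, no member passed the fold threshold in 2C+F10, beside 5.9% of genes with at least 5 TPM in the higher library. In 2C+MTG only Jag1 passed (-1.27), beside 7.52%. In 2C+VC none passed, beside 9.61%, with Notch3 at -0.98. In ALL, Jag1 (-1.69), Notch3 (-1.52) and Lfng (-1.35) passed, beside 12.3% and an all-gene median of -0.24. The 4 comparisons share the 2C library, so an unusual level there would enter all of them. Dll4, outside the list, stood at 5.48 TPM in 2C and was past the threshold in 2C+MTG (1.82) and ALL (1.58). Club cell markers summed to 225.8 TPM in 2C, 934.6 in 2C+F10, 5.07 in 2C+MTG, 4866 in 2C+VC and 14.5 in ALL. Ciliated cell markers summed to 281.1, 442.1, 204.7, 352.6 and 237.6 TPM in the same order, with 8, 8, 3, 7 and 4 of 8 at 1 TPM. Mesenchymal markers summed to 97.1 TPM in 2C+F10 and to 1.07 to 5.59 in the others. Haematopoietic markers summed to 2.44 to 107 TPM, with 1 to 3 of 8 at 1 TPM. Mesothelial markers summed to 4.76 to 58.3 TPM and distal tip markers to 24590 in 2C+F10 and 102800 in ALL. Here too a single gene can carry the distal tip sum. The part of all these markers in the values of the members was not tested.

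Among the numbered culture groups, with 2 libraries each, 7 of the 10 members passed the filter and none was called in any of 6 comparisons. Dll1, Hey1 and Nrarp stayed below it, at 0 to 1.42, 0 to 0.29 and 0 to 0.53 TPM. Notch3 stood at 1.11 and 0.72 TPM in ALL, 1.41 and 2.38 in ALL-FGF10, 3.26 and 2.08 in ALL-MTG and 2.17 and 3.06 in ALL-VC. Jag1 stood at 4.07 and 2.15 TPM in ALL, 4.29 and 3.23 in ALL-FGF10, 5.01 and 9.24 in ALL-MTG and 7.01 and 7.12 in ALL-VC. For both genes the 2 ALL libraries lie below those of ALL-MTG and ALL-VC, as they do for 11.6% of all tested genes.

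Against ALL, limma called no member in ALL-MTG, beside 0.513% of genes. An unadjusted limma p under 0.05 was found for 3 members there and for 1924 of all 14802 genes tested. The 3 members were Jag1 (0.97, adjusted p = 0.33), Notch3 (0.93, adjusted p = 0.33) and Notch1 (0.72, adjusted p = 0.38). In ALL-VC none was called by limma, beside 0.804%, and 2 had an unadjusted p under 0.05, as had 2533 of the 14802 genes. These 2 members were Jag1 (1.01, adjusted p = 0.23) and Notch3 (0.91, adjusted p = 0.25). In ALL-FGF10 none was called, beside 1.83%, and none had an unadjusted p under 0.05 in limma. These comparisons share the ALL libraries.

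Lfng was lowest in ALL-FGF10, at 1.15 and 0.9 TPM, against 1.72 and 2.58 in ALL, 8.73 and 2.29 in ALL-MTG and 4.3 and 5.28 in ALL-VC. The limma difference was -1.49 against ALL-MTG (adjusted p = 0.17) and -1.51 against ALL-VC (adjusted p = 0.15), the only member in each with an unadjusted p under 0.05. All genes were called at 3.52% and 3.82%, and 2703 and 2960 of 14802 had an unadjusted limma p under 0.05. Against ALL-VC, Lfng was called in the fit of only these 2 groups (limma adjusted p = 0.021), where 2158 of all 13760 genes tested were called. It was also called without either ALL-MTG library, in fits that leave 1 library in that group. Against ALL-MTG it was called without the second ALL-MTG library, which held 2.29 TPM (-2.27, adjusted p = 0.032).

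ALL-MTG and ALL-VC gave no called member either, beside 0.547% of genes, and no unadjusted p under 0.05 in limma. Notch2 stood between 9.48 and 16.7 TPM over the 8 libraries and Hes1 between 41.3 and 67.3, both ends of the Hes1 range lying in ALL-FGF10 and ALL. Jag2 ranged from 1.94 TPM in ALL to 12.3 in ALL-MTG, whose other library held 3.11. Mesenchymal markers differed within groups too, at 4.78 and 106.1 TPM in ALL and 8.16 and 180.1 in ALL-MTG, and were at most 1.24 in ALL-FGF10 and ALL-VC. Haematopoietic markers summed to 202.5 and 312.9 TPM in ALL and to 17.1 to 172.7 in the other groups. Only 2 of these 8 markers were at 1 TPM in ALL, and 1 to 3 in the other groups. The part of all these markers was not tested. The unnumbered ALL library of the 2C set held 2.09 TPM of Notch3 and 4.72 of Lfng, above both numbered ALL libraries (1.72 and 2.58 for Lfng), but stands in another table and was not tested against them.

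**Figure D5:**
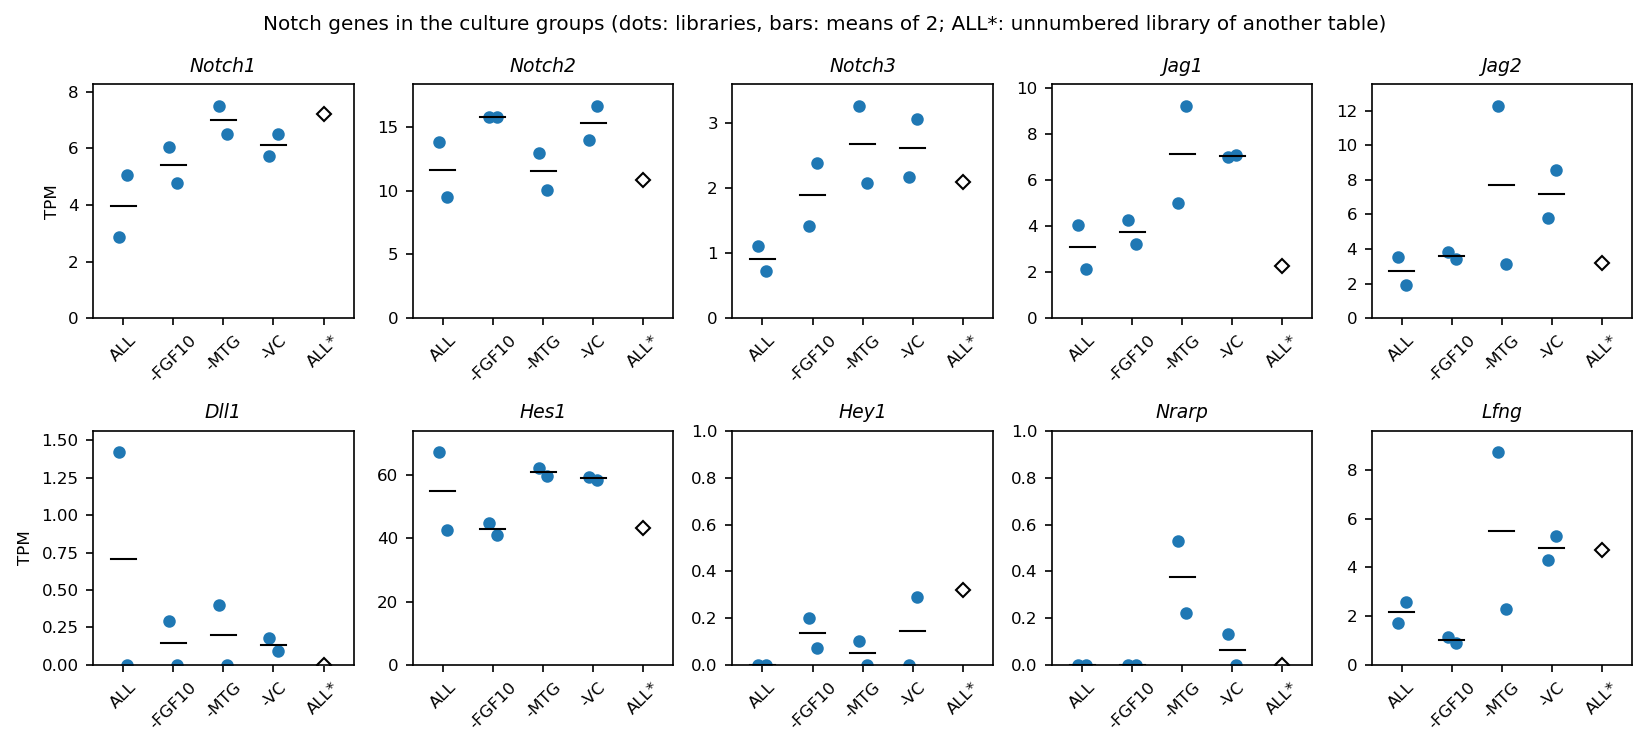
TPM of the 10 genes in ALL and its 3 omissions, with dots for libraries, lines for means of 2, and an open diamond for the unnumbered ALL library of another table. Lfng is lowest in ALL-FGF10 (1.15 and 0.9 TPM), and no difference passed the test.

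Between cut organoid pieces the members varied without a called difference. Over 8 pieces Notch2 ranged from 11.3 to 22.3 TPM (intact organoid 15.8), Notch1 from 2.51 to 10.6 (5.81), Hes1 from 42 to 84.6 (43), Jag1 from 3.63 to 12 (2.36) and Jag2 from 2.07 to 6.5 (1.68). Of the 8 members that passed the filter, limma called none between up and down pieces or between left and right pieces, where 0% of all genes were called. Among the members only Lfng, between left and right, had an unadjusted limma p under 0.05, beside 461 of all 14830 genes tested there. It stood at 2.32, 0.56 and 0.51 TPM in the 3 left pieces and 5.34, 4.33 and 5.28 in the 3 right pieces, which do not overlap, as for 6.18% of all genes tested in pieces, with a fitted difference of -1.59 ± 0.35 and an adjusted p of 1. The labels do not say whether the pieces come from the same organoid, and each position has 1 library.

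The rest of the pathway was read from 6 lists with 49 further genes, chosen with earlier results of these data known. Between organoids and tips 44 were tested, of which 10 were called higher and 20 lower, beside 21.7% of all tested genes called higher and 40.2% lower. Of 10 receptor-processing genes 6 were higher, among them Adam10 (0.88) and Adam17 (0.6), the proteases that cut the receptor at the surface, while Furin, a gene for a protease that processes the receptor on its way to the surface, was lower (-0.68). The median of the processing genes was 0.39, and that of all genes -0.2. Of 8 nuclear complex genes 5 were lower and none higher, with a median of -0.51, including Rbpj (-0.83), with 29.8 to 36.8 TPM in tips and 13.3 to 25.6 in organoids, and its coactivator gene Maml1 (-0.4). Of 5 glycosylation genes Pofut1 (-0.62), Poglut1 and Mfng (-1.64) were lower and Eogt higher.

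Other target genes went both ways, with 5 of 7 tested lower and 2 higher. Heyl (-1.11) and Hes6 (-0.61) were lower, and Bcl6 (2.64) was higher, with 0.29 to 0.65 TPM in tips and 2.52 to 14.7 in organoids. No tip was at 1 TPM, so Bcl6 passed the filter only through the organoids and had to be higher there to be tested. Dlk1, a Delta-like protein that lacks the domain by which Notch ligands activate the receptor, stood at 757 to 973 TPM in tips, 21.9 to 163.2 in organoids of 11 to 13 days and 0 to 1.58 in later ones. It fell by 6.5 in organoids against tips (limma adjusted p = 0.00054) and fell by 6.31 over 21 culture days (adjusted p = 0.004). Over culture day 5 of the 44 genes were called lower, Dlk1, Adam10 (-0.7), Mib1 (-0.56), Id1 (-1.65) and Sox9 (-0.99), and none higher, beside 6.67% of all tested genes called lower and 2.97% higher. In LO libraries Dlk1 stood at 147, 114 and 3 TPM on days 8, 11 and 18 and at 146.4 in LO_day11_DCI.

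Among the culture groups Dlk1 was the only one of these 49 genes that limma called. It stood at 18.9 and 8.09 TPM in ALL-VC and at 0 to 0.24 in the other 6 libraries, and was called against ALL, ALL-FGF10 and ALL-MTG. With 1 TPM reached only in ALL-VC, Dlk1 passed the filter only through that group and had to be higher there to be tested. The unnumbered ALL library held 64.6 TPM of Dlk1, unlike the numbered ones.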

How the data were processed

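Per the labels' protocols, TRIzol was used for RNA, a VAHTS mRNA-seq v2 kit for libraries and a NovaSeq X Plus for sequencing. The authors deposited 5 tables of TPM per gene, and per the submitters' processing notes RSEM, Bowtie2 and mm10 were used, with no versions given in the sources used here. Column totals are 997840 to 999209 TPM. Depth per library and its precision are unknown, and since TPM has a fixed total, a rise of a few abundant genes lowers all others. Titles tie 40 columns to samples, and 1 column was not used. No 2 of the 40 libraries were identical (780 pairs, highest Pearson's r 0.986).

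Fits used log2(TPM + 1) of the genes that reach 1 TPM in 2 or more of the libraries fitted. Tests used limma 3.58.1 in R 4.3.3 (lmFit, then eBayes with a trend), two-sided, with Benjamini-Hochberg adjustment over all genes tested and calls at adjusted p under 0.05. The 4 numbered culture groups shared 1 fit. Slopes came from a fit of the 14 tips and organoids with terms for culture day, start stage and embryonic day, multiplied by ranges of 21, 4.5 and 3 days. The fit of pieces had terms for vertical and lateral position and for size. Comparisons of 1 library with 1 have no test. The tests were tried on simulated data. Figures used Python 3.11.15 with matplotlib 3.10.9.

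All 10 members are named throughout, with genes of the other lists that were called or needed. Up to 3 genes most like a member over 10 organoids are named for Notch1, Notch3, Lfng, Hey1, Hes1 and Jag2. The members, the gene lists and the groups were chosen with earlier results of these data known. Coordinates are from GENCODE M21 on GRCm38, the assembly also called mm10. Replicate numbers of the culture groups did not pair libraries: correlations of their deviations ran from -0.07 to 0.114. Alternatives were another pseudocount, no filter, median-ratio rescaling, a replicate block, fewer groups and each library left out in turn. The value of a gene counted in the pathway lists is not reported here.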

Additional observations from a re-analysis of the deposited data

Results flagged for a closer look

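Of 30 groups of member values with 4 to 10 libraries, 2 held a library far from the others, where chance alone flags about 1 group in 20. Both are the piece labelled left-half (3). Notch3 stood at 5.29 TPM there, and the next of the 8 pieces at 1.65 TPM. Hey1 stood at 0.66 TPM there and was listed at 0 in the other 7 pieces. With those 7 at 0, any value above 0 would have been flagged, so the rate of 1 in 20 does not cover Hey1.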

How the results depend on the processing

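Notch3, Notch1, Nrarp, Hey1 and Dll1 kept their lower level in organoids than in tips and their call under every alternative tried, left-out libraries included, except that 12 of 14 left-out libraries gave a value for Dll1. Nrarp, Hey1 and Dll1 passed the filter only with the tips. In each filtered fit these members thus had to be lower in organoids, and their kept calls there add no support. The difference of Jag1 ran from -0.42 to 0.058 over left-out libraries and was 0.10 after rescaling and 0.082 with organoids of 11 to 13 days only, where Lfng was 0.33. The culture slope of Jag2 ran from -0.20 to 0.14 over left-out libraries and was 0.16 after rescaling. Members called ran from 4 to 7 for organoids against tips, from 0 to 4 for culture day and from 0 to 1 for ALL-FGF10 against ALL-MTG and against ALL-VC as libraries were left out. Culture day had 1 member called after rescaling, and 0 members and 166 genes without the 3 organoids highest in mesenchymal markers, an alternative chosen after seeing the data. The cause was not tested in any of these cases. A fit of only the 2 groups compared called 2 members for ALL-FGF10 against ALL-VC, beside 2158 of all 13760 genes tested.

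Counts of all genes called moved more. Left-out libraries gave 9 to 1149 genes for ALL-FGF10 against ALL, 18 to 191 for ALL-MTG, 8 to 1309 for ALL-VC, 19 to 838 for ALL-FGF10 against ALL-MTG, 15 to 966 against ALL-VC and 6 to 204 for ALL-MTG against ALL-VC. They gave 430 to 1825 for culture day, 2 to 10 for start stage, 14 to 120 for embryonic day and 0 to 1 for each comparison of pieces. With the fit of only the 2 groups the counts were 166, 11 and 51 against ALL, and ALL-VC against ALL-FGF10 gave 2158 and against ALL-MTG 18. A pseudocount of 0.1 TPM gave 177 for ALL-FGF10 against ALL and 25 for embryonic day. Without the filter there were 7 for ALL-MTG and 27 for ALL-VC against ALL, 22 between ALL-MTG and ALL-VC, 3 for start stage and 335 for embryonic day. Rescaling gave 190 for ALL-VC against ALL, and for ALL-FGF10 against ALL-VC changed 287 higher and 278 lower to 323 and 204.

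With the replicate number as a block, 143 genes were called for ALL-FGF10, 48 for ALL-MTG and 68 for ALL-VC against ALL, where the fit without it called 271, 76 and 119, and 45 rather than 81 for ALL-MTG against ALL-VC. The numbers do not pair the libraries, and no member was called with the block. Counting single-library differences from 1 TPM instead of 5 gave 1428, 3629 and 2715 genes between LO days 8 and 11, 8 and 18, and 11 and 18, 4163 for DCI, and 1480, 1714, 2030 and 2426 for 2C+F10, 2C+MTG, 2C+VC and ALL against 2C. It gave 1 member (Jag1) for days 8 and 11 and 5 members for days 8 and 18. With a pseudocount of 0.1 TPM 1 member (Notch3) passed in 2C+VC. TPM keeps no depth, so no limit on genes listed at 0 could be given.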
